A study of Mus musculus with 3 samples.

Results

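Integrins, tetraspanins and other adhesion molecules were examined in 3 dendritic cell (DC) subsets of the mouse spleen. The set holds 52 genes listed by name: 15 integrin alpha subunits, 8 integrin beta subunits, 10 adhesion molecules of the immunoglobulin superfamily, 4 other adhesion molecules and 15 tetraspanins. A probe set, a group of short array probes for 1 transcript, belonged to the set when the platform annotation gave it the symbol of 1 of these genes. This matched 116 of 45101 probe sets and 51 of the 18194 genes named on the array. Cd63 was not analysed here. The groups were plasmacytoid DC (pDC), CD8+ conventional DC (CD8+ cDC) and CD11b+ conventional DC (CD11b+ cDC), all sorted by flow cytometry from spleens of naive female C57bl/6 mice aged 6 to 8 weeks after magnetic bead removal of T and B cells. RNA was pooled over 5 to 8 mice per subset, amplified from 20 ng and hybridised to 1 Affymetrix array per subset. With 1 array per subset there is no spread between samples, so neither a p-value nor a standard error can be had and every difference describes these 3 pools.

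Integrins are alpha-beta heterodimers that bind matrix proteins or counter-receptors on other cells, and the beta2 and beta7 integrins are largely restricted to leukocytes. Immunoglobulin superfamily members such as the ICAMs, VCAM-1 and the junctional adhesion molecules serve as their ligands or bind each other across cell contacts. Tetraspanins are small 4-pass membrane proteins that gather integrins, proteases and immune receptors into membrane domains. In dendritic cells these families take part in migration, in holding cells within splenic niches and in contact with T cells, and several of their members, CD11c, CD11b and CD103 among them, are used as subset markers.

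Values are the deposited linear intensities, here called signals. A level of 111, set from 87 probe sets of smell, pheromone and taste receptor genes, marked background, and lower signals were raised to it before folds were taken. A fold against an array at background is therefore written as a lower bound. A gene counted as higher or lower when it differed by at least 2-fold and its brighter array passed that level. Where a gene had several probe sets the one with the highest mean log2 signal was used, and signals of different genes were not compared with each other. The arrays held 10339 (pDC), 10400 (CD8+ cDC) and 10407 (CD11b+ cDC) genes above background. The gates beyond the proteins in the subset names are not given in the labels. On its own array each subset had above background 7 of 7 pDC, 5 of 5 CD8+ cDC and 4 of 5 CD11b+ cDC markers measured. Such counts did not separate the subsets. On each of the other arrays 5 of 7 pDC markers and 4 of 5 CD8+ cDC markers were above background. For CD11b+ cDC markers it was 5 of 5 in pDC and 4 of 5 in CD8+ cDC. The summed signal of each list was highest on its own array. As examples, Siglech gave 106309.8 in pDC, 53.4 in CD8+ cDC and 52.2 in CD11b+ cDC, Xcr1 gave 48.4 in pDC, 10168 in CD8+ cDC and 48.3 in CD11b+ cDC, and Clec4a2 gave 318 in pDC, 457 in CD8+ cDC and 34496 in CD11b+ cDC. The CD11b+ cDC marker Mgl2 was not above background on its own array, with 778 in pDC, 61.1 in CD8+ cDC and 93.7 in CD11b+ cDC. Cd8a (32230.5) and Sirpa (36974), markers of CD8+ cDC and CD11b+ cDC, were also above background in pDC. T cell markers Cd3d, Cd3e, Cd3g and Zap70 lay at background on all 3 arrays. On every array 2 of 5 B cell, 1 of 4 NK cell and 3 of 3 erythroid markers were above background. The B cell markers above background differed between arrays. Ms4a1 gave 223 in pDC, 19147 in CD8+ cDC and 11046.5 in CD11b+ cDC, and Cd79b gave 10103 in pDC, 381 in CD8+ cDC and 4025.5 in CD11b+ cDC. Cd79a, Pax5 and Fcer2a lay at background throughout, and the part of B cells in the results was not tested. Control probe sets for Actb were brighter at the 3' end than at the 5' end by 5.71-fold in pDC, 4.08-fold in CD8+ cDC and 2.91-fold in CD11b+ cDC. For Gapdh the ratio was 16.2 in pDC, 17.6 in CD8+ cDC and 9.68 in CD11b+ cDC, and the part of these differences in the results was not tested.

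Of the 51 measured genes, 36 were above background on all 3 arrays, 1 on 2 arrays, 5 on 1 array and 9 on none. The 9 at background were Itga2, Itga7, Itgb4, Itgb6, Itgb8, Jam2, Jam3, Tspan5 and Tspan32. Itgb4 and Itgb6 encode subunits known from epithelium, Itga7 one of muscle, and Jam2 and Jam3 junction proteins of endothelium. Tspan5 lay just under the level in pDC, with 111 in pDC, 54.6 in CD8+ cDC and 88.0 in CD11b+ cDC. Among the other 42, the brightest array was pDC for 13, CD8+ cDC for 16 and CD11b+ cDC for 13, and the dimmest was pDC for 23, CD8+ cDC for 7 and CD11b+ cDC for 12. These counts required no fold, so nearly flat genes such as Itga9 entered them. They were not taken over all genes and describe the list only.

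**Figure D1:**
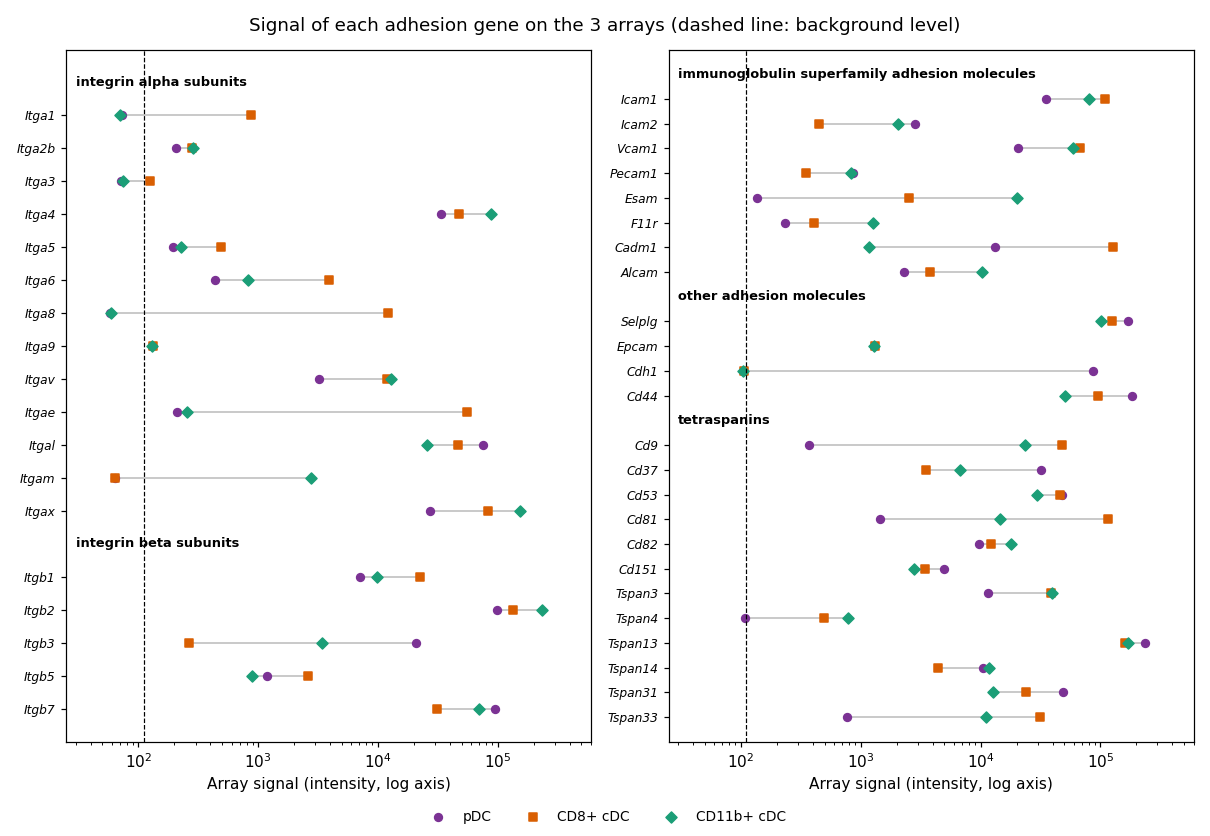
Signal (linear intensity on a log axis) of the 42 adhesion genes above background on at least 1 array, by role, with a symbol for each of the 3 arrays and a dashed line at the background level of 111. Cdh1, Itgae and Itga8 span the widest ranges, and in each of them 1 array lies far above the others, pDC for Cdh1 and CD8+ cDC for Itgae and Itga8.

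In 11 genes 1 array stood at least 4-fold above both others. They were Itgb3, Cdh1 and Cd37 in pDC, then Itga1, Itga6, Itga8, Itgae, Cadm1 and Cd81 in CD8+ cDC, and Itgam and Esam in CD11b+ cDC. Over the 11011 genes above background on any array, the same rule picked 4.27% for pDC, 2.42% for CD8+ cDC and 2.02% for CD11b+ cDC. The reverse, 1 array at least 4-fold below both others, held for Esam, Cd9, Cd81, Tspan4 and Tspan33 in pDC, for Itgb3 and Icam2 in CD8+ cDC and for Cadm1 in CD11b+ cDC, against 4.39%, 1.38% and 0.790% of all genes for the same arrays. Both lists depend on the scaling. Scaled on hybridization spike-ins (control transcripts added in fixed amounts), Itga1 (3.97-fold), Itga6 and Cd37 left the first list, and F11r and Alcam entered it for CD11b+ cDC. Tspan4 left the second list and Itgb7 entered it for CD8+ cDC. Itga1 and Tspan4 also dropped out with the background level raised to 222, and Itga6 with the median over probe sets. With so few genes per array these counts describe the list and are no evidence about adhesion genes as a class.

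Proximal promoters of the genes that stood apart on 1 array are shown where the RefSeq promoter table (GRCm38.p6, 36 of 52 genes matched) held them. The sequence at the start of such a gene can then be set beside its signals. Each promoter runs from 250 bases before to 50 bases after the transcript start, 5' to 3' on the gene's strand. Capitals mark matches on either strand to the E-box spellings CAGCTG and CAGGTG, which E proteins such as Tcf4 can bind, to GAGGAA, a core of PU.1-type ETS sites, and to TGANTCA, the AP-1 site that Batf3 and Jun proteins can bind. No matches overlapped in these 5 promoters. Cd37 lies at chr7:45238790-45239089 (minus strand), Itga1 at chr13:115101915-115102214 (minus strand), Itga8 at chr2:12301895-12302194 (minus strand), Cd81 at chr7:143052500-143052799 (plus strand) and Itgam at chr7:128062390-128062689 (plus strand).
Cd37: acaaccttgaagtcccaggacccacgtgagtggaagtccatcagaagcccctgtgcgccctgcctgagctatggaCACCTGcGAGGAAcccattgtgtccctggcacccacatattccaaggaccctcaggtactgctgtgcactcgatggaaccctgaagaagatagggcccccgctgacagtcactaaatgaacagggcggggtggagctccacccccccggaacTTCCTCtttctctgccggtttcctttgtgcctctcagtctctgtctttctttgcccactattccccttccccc
Itga1: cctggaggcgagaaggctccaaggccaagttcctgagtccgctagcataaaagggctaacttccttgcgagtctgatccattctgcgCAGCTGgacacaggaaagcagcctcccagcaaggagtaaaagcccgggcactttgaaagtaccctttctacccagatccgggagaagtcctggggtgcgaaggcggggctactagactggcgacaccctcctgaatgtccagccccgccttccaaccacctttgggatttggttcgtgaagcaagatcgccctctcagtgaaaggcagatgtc
Itga8: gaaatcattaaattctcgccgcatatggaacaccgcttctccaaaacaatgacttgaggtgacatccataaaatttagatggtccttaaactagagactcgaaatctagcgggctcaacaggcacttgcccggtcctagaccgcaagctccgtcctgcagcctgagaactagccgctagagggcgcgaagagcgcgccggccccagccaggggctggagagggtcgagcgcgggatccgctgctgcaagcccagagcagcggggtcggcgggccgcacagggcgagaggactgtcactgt
Cd81: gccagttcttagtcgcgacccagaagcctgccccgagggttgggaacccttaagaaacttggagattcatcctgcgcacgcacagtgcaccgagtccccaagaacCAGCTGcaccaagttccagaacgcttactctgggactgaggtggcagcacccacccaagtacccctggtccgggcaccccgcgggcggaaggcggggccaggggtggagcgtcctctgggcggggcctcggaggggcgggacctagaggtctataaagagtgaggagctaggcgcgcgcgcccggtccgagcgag
Itgam: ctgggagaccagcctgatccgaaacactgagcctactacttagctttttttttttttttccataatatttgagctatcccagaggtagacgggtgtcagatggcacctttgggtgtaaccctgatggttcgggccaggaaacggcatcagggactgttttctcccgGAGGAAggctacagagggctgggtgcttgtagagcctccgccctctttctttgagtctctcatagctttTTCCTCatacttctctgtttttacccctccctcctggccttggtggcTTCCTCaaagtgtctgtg

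The Itgam promoter, of the gene seen in CD11b+ cDC alone, held 3 matches to GAGGAA and none to the other spellings. Cd37, brightest in pDC, had 1 match to CAGGTG and 2 to GAGGAA. Among the genes brightest in CD8+ cDC, Itga1 and Cd81 had 1 match to CAGCTG each and Itga8 had none to any of the 4 spellings. Of 32851 RefSeq promoters of the same 300 bases, 16.3% held CAGCTG, 20.2% CAGGTG, 28.3% GAGGAA and 7.81% TGANTCA. A match is a run of letters and not a measured binding site.

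Among the alpha subunits, Itgae, Itga8, Itga6 and Itga1 stood apart in CD8+ cDC. Itgae encodes CD103, the alpha chain that pairs with beta7 and binds E-cadherin. Its signals were 208 in pDC, 55144 in CD8+ cDC and 254 in CD11b+ cDC. It was 217-fold higher in CD8+ cDC than in CD11b+ cDC and 265-fold lower in pDC than in CD8+ cDC, and its other probe set gave 177-fold and 199-fold for the same pairs. Itga8 encodes the alpha8 chain, which pairs with beta1 and binds nephronectin and other RGD-containing matrix proteins. It read 58.2 in pDC, 12205 in CD8+ cDC and 58.6 in CD11b+ cDC. Only the CD8+ cDC array lay above background, at least 109.8-fold over CD11b+ cDC, whereas a further Itga8 probe set stayed at background on all 3 arrays, with 93.6 in CD8+ cDC. Itga1, the alpha chain of a collagen receptor, followed the same pattern at low signal, with 72.6 in pDC, 879.5 in CD8+ cDC and 69.6 in CD11b+ cDC, and its other probe set was at background throughout. Itga6, of the laminin receptor VLA-6, gave 436 in pDC, 3942 in CD8+ cDC and 822 in CD11b+ cDC, 4.80-fold higher in CD8+ cDC than in CD11b+ cDC. A dimmer Itga6 probe set read 185 in CD8+ cDC and lay at background elsewhere.

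Itgam encodes CD11b, the protein after which 1 of the sorts is named, so its restriction to that array describes the gate and is no finding. Its signals were 63.6 in pDC, 64.3 in CD8+ cDC and 2786 in CD11b+ cDC. Neutrophil markers and most macrophage markers were also brightest on the CD11b+ cDC array. All 6 neutrophil markers were above background in CD11b+ cDC and in pDC, and 5 in CD8+ cDC. Their summed signal was 2547 in pDC, 1254 in CD8+ cDC and 17016 in CD11b+ cDC. The 9 macrophage markers summed to 14510 in pDC, 18216 in CD8+ cDC and 101412 in CD11b+ cDC, mostly from Adgre1 (70516 in CD11b+ cDC). Siglec1 was at background on every array. Cd163 was instead brightest in pDC, with 1987 in pDC, 616 in CD8+ cDC and 599.7 in CD11b+ cDC. Spic was brightest in CD8+ cDC, with 1975 there and 1542 in CD11b+ cDC. The part of the neutrophil and macrophage markers in the Itgam signal was not tested. In such bulk samples, more cells of a type and more RNA per cell cannot be told apart.

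Itgax, encoding CD11c, a common sort marker for dendritic cells, had 27138 in pDC, 82543 in CD8+ cDC and 152080.1 in CD11b+ cDC. It was 5.60-fold lower in pDC than in CD11b+ cDC and 3.04-fold lower than in CD8+ cDC, and the call against CD8+ cDC is lost when the arrays are scaled on hybridization spike-ins. Itgal, the alpha chain of LFA-1, which binds ICAMs, ran the other way, with 75759 in pDC, 46535 in CD8+ cDC and 25556 in CD11b+ cDC. It was 2.96-fold higher in pDC than in CD11b+ cDC at the brighter probe set and 2.10-fold at the dimmer one. Itga4, the alpha chain of VLA-4 and of the gut-homing receptor alpha4beta7, was brightest in CD11b+ cDC, with 33326 in pDC, 47268 in CD8+ cDC and 88589 in CD11b+ cDC. Its difference between pDC and CD11b+ cDC was 2.66-fold, a call lost with the median over probe sets, and its 5 probe sets ranged from 1.45-fold to 3.39-fold, all lower in pDC. Its probe sets disagreed on CD8+ cDC against CD11b+ cDC, from 1.87-fold lower to 1.79-fold higher. Itgav, the chain of the vitronectin receptors, had 3203 in pDC, 11849.7 in CD8+ cDC and 12749 in CD11b+ cDC at its brightest probe set. It was 3.98-fold lower in pDC than in CD11b+ cDC, just short of 4-fold. The 3 probe sets above background ranged from -1.99 to -0.01 log2 for pDC minus CD11b+ cDC, one of them put CD8+ cDC 1.90-fold above CD11b+ cDC, and the pDC against CD11b+ cDC call is lost with the median over probe sets.

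Low signals completed the alpha chains. Itga5, of the fibronectin receptor, had 194 in pDC, 493 in CD8+ cDC and 226 in CD11b+ cDC, a 2.18-fold difference between CD8+ cDC and CD11b+ cDC that was under 2-fold with spike-in scaling. Only 1 of its 4 probe sets was above background. Itga2b, the platelet alpha chain, read 204 in pDC, 279.9 in CD8+ cDC and 287 in CD11b+ cDC. Platelet markers Gp9, Gp1bb, Gp5, Gp6 and Treml1 were at background on every array, while Pf4 gave 218 in pDC, 519.5 in CD8+ cDC and 1988 in CD11b+ cDC. The part of platelets in the Itga2b signal was not tested. Itga3, of a laminin receptor, reached 125 in CD8+ cDC and lay at background elsewhere, and Itga9 gave 131 in pDC, 132 in CD8+ cDC and 129 in CD11b+ cDC, near background on all arrays.

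Of the beta subunits, Itgb3 varied most. It encodes beta3, the partner of alphaV in the vitronectin receptor and of the platelet alpha chain. Its signals were 20707 in pDC, 264 in CD8+ cDC and 3415 in CD11b+ cDC, which put it 78.4-fold higher in pDC than in CD8+ cDC, 6.06-fold higher in pDC than in CD11b+ cDC and 12.9-fold lower in CD8+ cDC than in CD11b+ cDC. The other Itgb3 probe set stayed under background on all arrays, though by little in pDC (111). Of 8 platelet markers 3 were above background on each array. The 8 summed to 1455 in pDC, 3060 in CD8+ cDC and 5642 in CD11b+ cDC, and the part of platelets in the Itgb3 signal was not tested.

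Itgb7, the partner of CD103 and of alpha4, was lowest in the subset with the most Itgae. It gave 94518 in pDC, 31101 in CD8+ cDC and 69725 in CD11b+ cDC, so CD8+ cDC were 2.24-fold below CD11b+ cDC, and pDC were 3.04-fold above CD8+ cDC. Itgb1, the common partner of alpha1, alpha4, alpha5, alpha6 and alpha8, had 7093 in pDC, 22515 in CD8+ cDC and 9883 in CD11b+ cDC. It was 2.28-fold higher in CD8+ cDC than in CD11b+ cDC at the brightest of 5 probe sets, all of them on the same side and as low as 1.10-fold, and the call is lost with spike-in scaling. Itgb2, the CD18 chain of all leukocyte integrins of the CD11 series, read 99599.7 in pDC, 135194 in CD8+ cDC and 233486 in CD11b+ cDC and was 2.34-fold lower in pDC than in CD11b+ cDC. Itgb5, another partner of alphaV, could not be ordered. Its brightest probe set read 1178 in pDC, 2617 in CD8+ cDC and 881 in CD11b+ cDC, while the 3 others were highest in CD11b+ cDC, one of them at 236 in pDC, 233 in CD8+ cDC and 496 in CD11b+ cDC.

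The chains of 10 integrins were set side by side at the probe set used for each gene. In CD103/beta7, LFA-1 and alphaVbeta3 both partners passed 2-fold in opposite directions in the same pair. Chains of VLA-4, alpha4beta7 and alphaVbeta5 also had opposite signs in some pairs, but there 1 chain was under 2-fold. For CD103/beta7 the log2 difference of CD8+ cDC minus CD11b+ cDC was 7.76 for Itgae and -1.16 for Itgb7. For LFA-1, pDC minus CD11b+ cDC was 1.57 for Itgal and -1.23 for Itgb2. The vitronectin receptor alphaVbeta3 gave -1.99 for Itgav and 2.60 for Itgb3 in the same pair. Itga8 and Itga6 were brightest in CD8+ cDC together with Itgb1, and Itgam and Itgax were brightest in CD11b+ cDC together with Itgb2. Transcript signals of chains say nothing of how much heterodimer reached the surface.

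**Figure D2:**
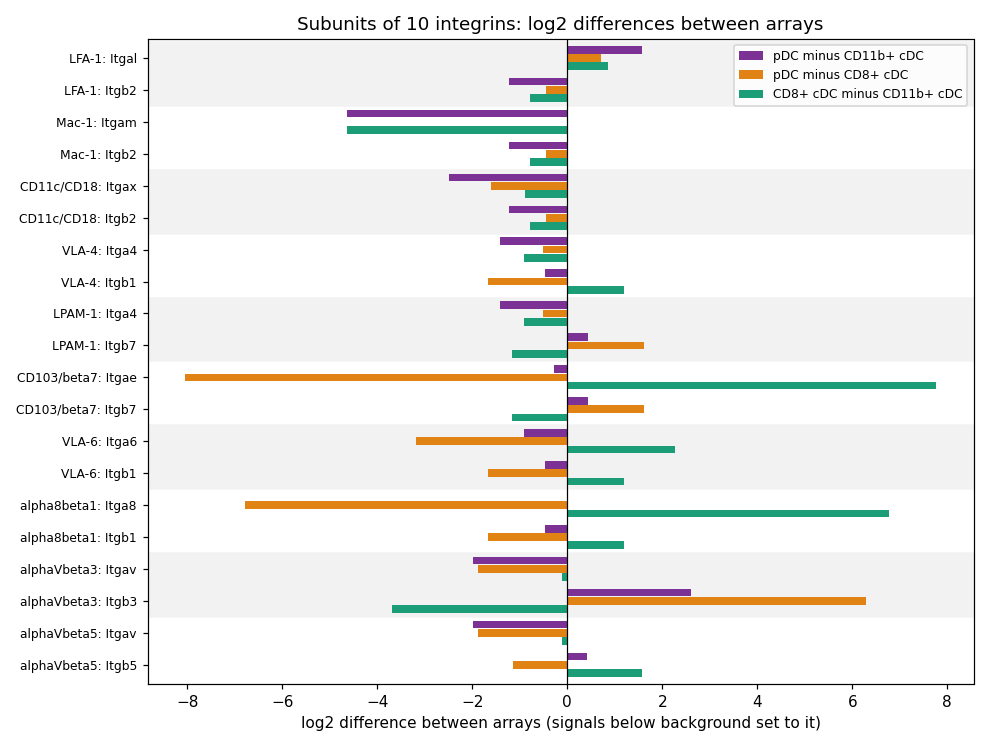
Log2 differences between arrays for the alpha and beta chain of 10 integrins, with 1 bar for each pair of subsets and signals below background raised to it. Bars of Itgae (7.76 for CD8+ cDC minus CD11b+ cDC) and Itgb7 (-1.16) point in opposite directions, as do those of Itgav and Itgb3 for pDC minus CD11b+ cDC.

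Among immunoglobulin superfamily members, Esam and Cadm1 separated the conventional subsets in opposite directions. Esam, an endothelial junction protein that marks a fraction of CD11b+ cDC in mouse spleen, had 136 in pDC, 2516 in CD8+ cDC and 20158 in CD11b+ cDC. All 3 arrays differed: CD8+ cDC were 8.01-fold below CD11b+ cDC and 18.5-fold above pDC, where the signal was barely over background. Cadm1, a ligand of the T and NK cell receptor CRTAM known from CD8+ cDC, had 13334 in pDC, 128249 in CD8+ cDC and 1163 in CD11b+ cDC. It was 110.3-fold higher in CD8+ cDC than in CD11b+ cDC, and pDC lay between them, 9.62-fold below CD8+ cDC and 11.5-fold above CD11b+ cDC. All 4 Cadm1 probe sets were higher in CD8+ cDC than in CD11b+ cDC, by up to 118-fold.

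F11r, encoding JAM-A, was brightest in CD11b+ cDC, with 234 in pDC, 408 in CD8+ cDC and 1275 in CD11b+ cDC, and was 5.44-fold lower in pDC and 3.13-fold lower in CD8+ cDC. Alcam, the ligand of CD6 on T cells, gave 2312 in pDC, 3764 in CD8+ cDC and 10242 in CD11b+ cDC. CD8+ cDC were 2.72-fold below CD11b+ cDC, with a range over 5 probe sets of 1.03-fold to 4.45-fold on the same side. Alcam was 4.43-fold lower in pDC than in CD11b+ cDC, with a range of 1.45-fold to 4.43-fold. The median over probe sets gave -0.75 log2 for CD8+ cDC minus CD11b+ cDC, under 2-fold, and -1.07 for pDC minus CD11b+ cDC. Icam2, a ligand of LFA-1, was instead lowest in CD8+ cDC, with 2815 in pDC, 450.3 in CD8+ cDC and 2055 in CD11b+ cDC, and pDC were 6.25-fold above CD8+ cDC. Pecam1, the homophilic molecule CD31, showed the same order with smaller differences, 864 in pDC, 352 in CD8+ cDC and 823 in CD11b+ cDC.

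Icam1 and Vcam1, the inducible ligands of LFA-1 and VLA-4, were lower in pDC than in either conventional subset and differed little between those. Icam1 had 35344 in pDC, 109498 in CD8+ cDC and 81026 in CD11b+ cDC. It was 2.29-fold lower in pDC than in CD11b+ cDC and 3.10-fold lower than in CD8+ cDC, and only the call against CD8+ cDC is lost with spike-in scaling. Vcam1 had 20551 in pDC, 68203 in CD8+ cDC and 58884 in CD11b+ cDC, 2.87-fold lower in pDC than in CD11b+ cDC and 3.32-fold lower than in CD8+ cDC. Spic, a transcription factor of red pulp macrophages, which also express Vcam1, gave 515 in pDC, 1975 in CD8+ cDC and 1542 in CD11b+ cDC, and its part in the Vcam1 difference was not tested.

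Cdh1, high in pDC, had the largest difference of the 51 measured genes. It encodes E-cadherin, the homophilic adhesion protein of epithelial junctions and a ligand of CD103/beta7. Signals were 86751 in pDC, 106 in CD8+ cDC and 105 in CD11b+ cDC, so both conventional arrays lay at background and pDC stood at least 780.3-fold above each. Cdh5, the endothelial VE-cadherin gene, read 11542 in pDC and was at background in both conventional subsets. The endothelial gene Kdr had 18604 in pDC, 112 in CD8+ cDC and 397 in CD11b+ cDC, while Tek, Tie1, Col1a1 and Col3a1 were at background on every array. The 7 endothelial and stromal markers summed to 30540 in pDC, 571 in CD8+ cDC and 857 in CD11b+ cDC, and their part in the Cdh1 signal was not tested. Epcam, another epithelial adhesion gene, had 2 probe sets that disagreed. The one with the higher mean was flat at 1297 in pDC, 1316 in CD8+ cDC and 1297 in CD11b+ cDC, while the other read 3234 in pDC, 394 in CD8+ cDC and 1251 in CD11b+ cDC, 8.20-fold higher in pDC than in CD8+ cDC.

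Cd44, the hyaluronan receptor, was brightest in pDC, with 182407 in pDC, 95416 in CD8+ cDC and 50789.6 in CD11b+ cDC. It was 3.59-fold higher in pDC than in CD11b+ cDC, and its 3 probe sets above background gave 3.29-fold to 6.27-fold. Selplg, encoding the selectin ligand PSGL-1, was above background on all arrays and differed by less than 2-fold in every pair, with 170312 in pDC, 124793 in CD8+ cDC and 102324 in CD11b+ cDC. It passed 2-fold between pDC and CD8+ cDC when the arrays were scaled on spike-ins.

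Of the 12 tetraspanins above background, 5 were lower in pDC than in CD11b+ cDC, 2 were higher and 5 differed by less than 2-fold. Of all genes above background in that pair, 14.3% were lower and 15.0% higher. The 16.7% of tetraspanins that were higher lay near that share, and 12 genes are too few to read the rest. Cd9, which partners integrins and other tetraspanins, had 370.3 in pDC, 48284 in CD8+ cDC and 23618 in CD11b+ cDC. It was 130.4-fold lower in pDC than in CD8+ cDC and 63.8-fold lower than in CD11b+ cDC, and the 2 conventional arrays lay 2.04-fold apart, a call lost with spike-in scaling. Cd81, the close relative of CD9 that joins the B cell coreceptor, graded over all 3 arrays, with 1442 in pDC, 116109.8 in CD8+ cDC and 14448 in CD11b+ cDC. CD8+ cDC were 8.04-fold above CD11b+ cDC and 80.5-fold above pDC, and pDC minus CD11b+ cDC was -3.32 on the log2 scale. Tspan33, of the tetraspanin group that carries the protease ADAM10, had 769 in pDC, 31117 in CD8+ cDC and 11059 in CD11b+ cDC. Its 4 probe sets ranged from 20.6-fold to 113-fold lower in pDC than in CD8+ cDC, and from 7.17-fold to 42.4-fold lower than in CD11b+ cDC.

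Tspan4, known from migrasome formation, lay at background in pDC, with 109 in pDC, 489 in CD8+ cDC and 781 in CD11b+ cDC. Tspan3 was lower in pDC and alike in the conventional subsets, with 11503 in pDC, 38402 in CD8+ cDC and 39179 in CD11b+ cDC. Cd37, a leukocyte tetraspanin expressed on lymphocytes and antigen-presenting cells, ran the other way, with 32023 in pDC, 3509 in CD8+ cDC and 6680.2 in CD11b+ cDC. It was 9.13-fold higher in pDC than in CD8+ cDC and 4.79-fold higher than in CD11b+ cDC, and the dimmer of its 2 probe sets gave 4.52-fold and 3.44-fold. Tspan31 had 49161 in pDC, 23782 in CD8+ cDC and 12719.7 in CD11b+ cDC, 3.86-fold higher in pDC than in CD11b+ cDC. Another probe set repeated this order, and a dimmer one was flat, with 209 in pDC, 214 in CD8+ cDC and 209 in CD11b+ cDC. Tspan14, a further carrier of ADAM10, was lowest in CD8+ cDC, with 10564 in pDC, 4446 in CD8+ cDC and 11853 in CD11b+ cDC.

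Cd53, Tspan13, Cd82 and Cd151 differed by less than 2-fold between all arrays at the probe set used. Cd53, a pan-leukocyte tetraspanin, gave 47609.7 in pDC, 46302 in CD8+ cDC and 29635 in CD11b+ cDC. Tspan13 gave 233951 in pDC, 162037 in CD8+ cDC and 169265 in CD11b+ cDC, and its 2 probe sets put pDC 1.38-fold and 1.42-fold above CD11b+ cDC. Cd82 had 9796 in pDC, 12335 in CD8+ cDC and 17828 in CD11b+ cDC, and Cd151, a partner of laminin-binding integrins, had 4982 in pDC, 3442 in CD8+ cDC and 2782 in CD11b+ cDC. With spike-in scaling Tspan13 and Cd151 were each 2.25-fold higher in pDC than in CD8+ cDC. Tspan13 and Cd82 were then 2.08-fold and 2.88-fold lower in CD8+ cDC than in CD11b+ cDC, and Cd82 was 2.33-fold lower in pDC than in CD11b+ cDC. Another probe set put pDC above CD8+ cDC by 2.16-fold for Cd53 and 2.40-fold for Cd151.

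Counted over the whole list, pDC were more often on the lower side. In pDC against CD11b+ cDC, 7 of the 51 measured genes were higher in pDC, 15 were lower, 17 differed by less than 2-fold and 12 were at background on both arrays. Of all 10793 genes above background in that pair, 15.0% were higher and 14.3% lower, and the corresponding shares of the 39 list genes above background were 17.9% and 38.5%. In pDC against CD8+ cDC, 8 were higher, 18 lower, 15 under 2-fold and 10 at background, beside 16.0% and 14.8% of all 10823 genes. Of the 41 list genes above background there, 19.5% were higher and 43.9% lower. The share of list genes higher in pDC thus lay near that of all genes in both pairs. In CD8+ cDC against CD11b+ cDC, 11 were higher, 9 lower, 21 under 2-fold and 10 at background, beside 9.84% and 10.3% of all 10709 genes, and 26.8% and 22.0% of the 41 list genes above background.

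In the same order of pairs, the median log2 difference of list genes above background was -0.29, -0.50 and 0.03, and over all genes it was 0.01, 0.00 and 0.01. Differences of 10-fold or more were reached by 7, 8 and 5 list genes in these pairs. No such count was taken over all genes, so nothing is read from it. Genes enter such shares and medians through their bright array, so they serve as description only. By role, 12 alpha chains were above background in pDC against CD8+ cDC, with 0 higher in pDC and 7 lower, beside 16.0% and 14.8% of all genes. With spike-in scaling Itgal was higher in pDC and 5 alpha chains were lower. The 5 beta chains above background split 2 and 2. In CD8+ cDC against CD11b+ cDC, 5 of 13 alpha chains were higher and 1 lower, beside 9.84% and 10.3% of all genes, but spike-in scaling turned this into 4 higher and 5 lower. Of 8 immunoglobulin superfamily members above background in that pair 1 was higher and 5 were lower, with either scaling. With spike-in scaling 3.85% of all genes in that pair were higher and 45.4% lower, so lower calls were then common among all genes.

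**Figure D3:**
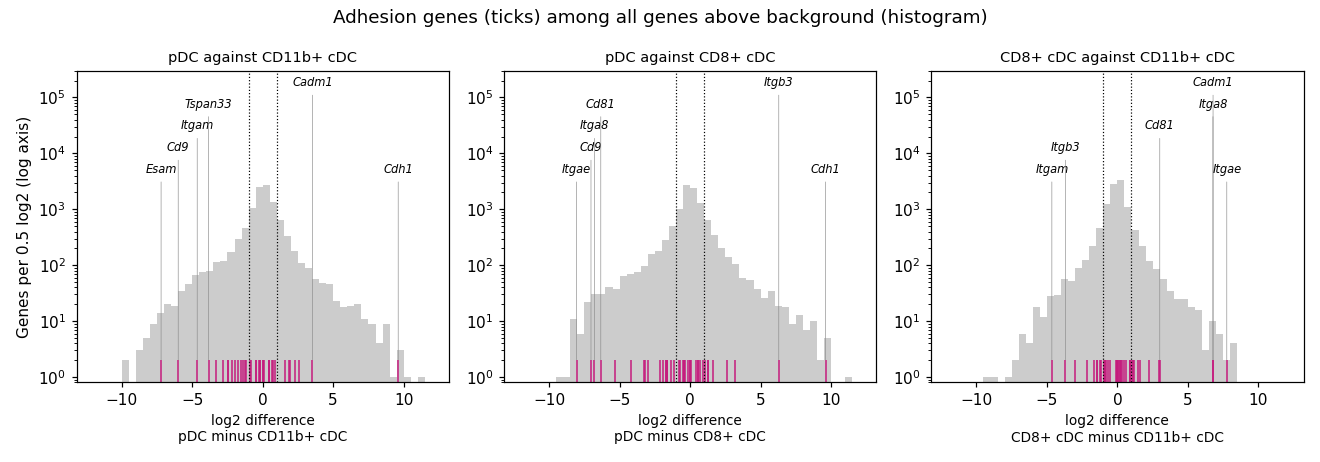
Distribution of log2 differences for all genes above background in each pair of subsets (grey, number of genes per 0.5 log2 on a log axis), with a tick for each adhesion gene and dotted lines at 2-fold. The 6 adhesion genes with the largest differences are named in each panel, and Cdh1 lies at 9.61 in both panels with pDC.

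Scaling mattered most in the comparison of the conventional subsets. Hybridization spike-ins, control transcripts added in fixed amounts, were brighter on the CD8+ cDC array, and scaling on them moved the median of all genes to -0.30, 0.65 and -0.95 log2 in these pairs. Of all called genes, 34.7%, 77.6% and 7.82% were then higher in the subset named first, instead of 51.2%, 51.9% and 49.0%. Of the list, all 22 calls in pDC against CD11b+ cDC, 22 of 26 in pDC against CD8+ cDC and 15 of 20 in CD8+ cDC against CD11b+ cDC kept their direction and size of at least 2-fold, and no called gene changed sign. The calls lost were those of Itga5, Itgax, Itgb5 and Icam1 in pDC against CD8+ cDC and of Itga5, Itgb1, Itgb5, Cd9 and Tspan33 in CD8+ cDC against CD11b+ cDC. The list then counted 7 higher and 17 lower, 13 and 14, and 6 and 19 in these pairs. Over all genes the shares higher and lower were then 10.6% and 19.9%, 33.6% and 9.70%, and 3.85% and 45.4%. The list's 13 and 14, and its 6 and 19, thus moved with a shift of all genes.

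Repeat measurements existed only as probe sets of 1 gene on the same array, which share the RNA and the hybridization. In 19 list genes at least 2 probe sets were above background. Of those called in a pair, 4 of 10 in pDC against CD11b+ cDC, 5 of 10 in pDC against CD8+ cDC and 3 of 7 in CD8+ cDC against CD11b+ cDC passed 2-fold the same way at every such probe set. Probe sets pointing the other way were found for Itgb5 and Tspan31, where the flat probe set gave -0.03 for pDC minus CD8+ cDC. Over the 4966 genes with a second probe set, log2 differences of the 2 brightest differed with an SD of 0.87, 0.91 and 0.75 in these pairs.

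**Figure D4:**
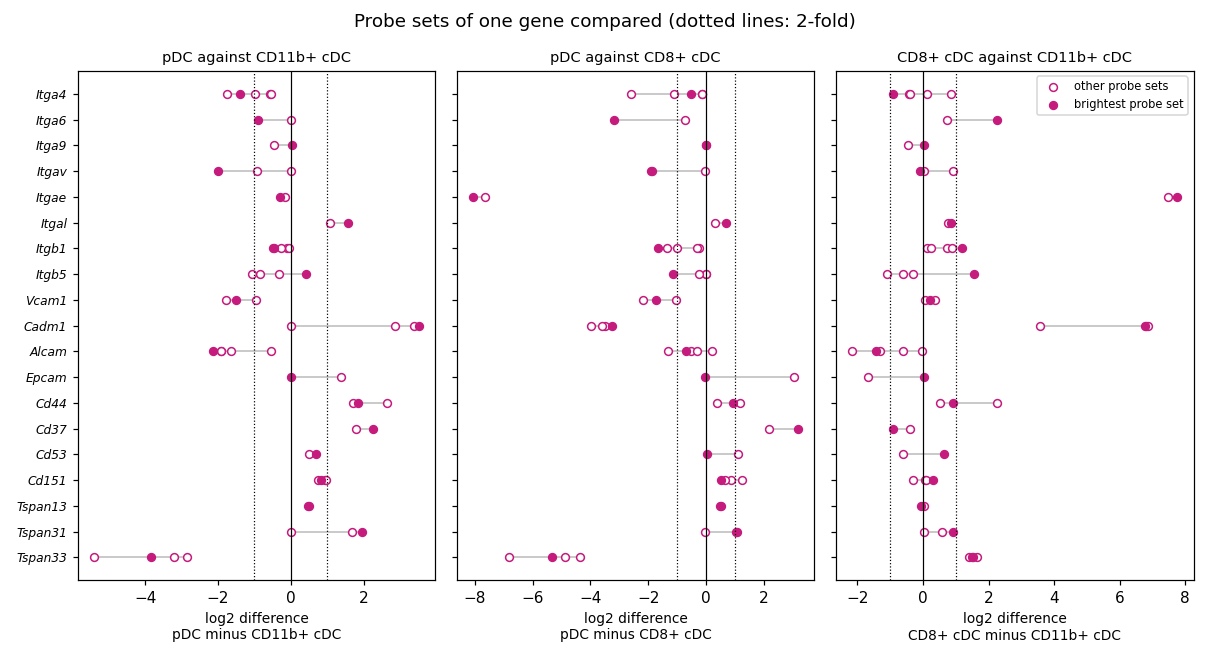
Log2 differences in the 3 pairs of subsets for each probe set above background of the 19 adhesion genes with at least 2 (filled, the brightest probe set, which gave the values in the text; open, the others; dotted lines, 2-fold). Itgae, Cadm1 and Tspan33 lie far from 0 at every probe set for pDC against CD8+ cDC, while Itgb5 and Epcam have probe sets on opposite sides of the 2-fold line.

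Genes that act on integrins from inside the cell were taken as a separate list of 38, of which 35 were measured and 29 were above background in each pair. In pDC against CD11b+ cDC 3 were higher and 6 lower, in pDC against CD8+ cDC 5 and 4, and in CD8+ cDC against CD11b+ cDC 2 and 6. Over all genes the shares higher and lower were 15.0% and 14.3%, 16.0% and 14.8%, and 9.84% and 10.3%, and most of the counts lay near them. Rasgrp2, the exchange factor that activates Rap1 upstream of integrins, had 8638 in pDC, 197 in CD8+ cDC and 499 in CD11b+ cDC and was 43.8-fold higher in pDC than in CD8+ cDC. Flna, the filamin that binds beta tails, had 4609 in pDC, 28462 in CD8+ cDC and 34269 in CD11b+ cDC, 7.44-fold lower in pDC than in CD11b+ cDC. Actn1, an alpha-actinin of adhesion sites, was also low in pDC, with 4907 in pDC, 30244 in CD8+ cDC and 27682 in CD11b+ cDC. The adaptor gene Fyb was lowest in CD8+ cDC, with 256286 in pDC, 42488 in CD8+ cDC and 141190.0 in CD11b+ cDC, as was Apbb1ip, encoding the Rap1 effector RIAM, with 320.3 in pDC, 134 in CD8+ cDC and 737 in CD11b+ cDC. Median log2 differences of the list were -0.43, -0.14 and -0.32 in these pairs.

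Of 16 further tetraspanins, 15 were measured and at most 6 were above background in a pair. Tspan9 was low in pDC, with 325 in pDC, 2356 in CD8+ cDC and 8221 in CD11b+ cDC, and Tspan2 was low in CD8+ cDC, with 6883 in pDC, 1936 in CD8+ cDC and 8809 in CD11b+ cDC. Of 11 known tetraspanin partners 10 were measured. Igsf8, a direct partner of CD9 and CD81, ran opposite to both genes, with 20548 in pDC, 2732 in CD8+ cDC and 2509 in CD11b+ cDC, 7.52-fold higher in pDC than in CD8+ cDC. Adam10, the protease carried by Tspan14 and Tspan33, differed at most 2.42-fold, with 91163 in pDC, 37724 in CD8+ cDC and 48836 in CD11b+ cDC. Of 17 selectin and integrin-ligand genes 13 were measured and 2 were above background in any pair: Fn1, encoding fibronectin, with 331 in pDC, 225 in CD8+ cDC and 1301 in CD11b+ cDC, and Cd47, an integrin-associated protein, with 152308 in pDC, 39977 in CD8+ cDC and 85684 in CD11b+ cDC.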

How the data were processed

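RNA of 3 sorted subsets was measured on 1 array each. Each deposited column holds a linear intensity for every probe set, made with MAS5 per the submitters' processing notes. Any scaling beyond that is unstated, and the median intensity was 97.8 in pDC, 99.6 in CD8+ cDC and 97.8 in CD11b+ cDC. On at least 1 array 13 list genes had a signal over 65535, the limit of a 16-bit scanner. Whether differences among such bright signals were compressed was not tested. Of 45101 probe sets, 34958 listed 1 gene, 932 several and 9211 none, and 64 were controls. Symbols come from the platform annotation; no member was on a probe set with several genes.

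Background was the 95th percentile of 87 sensory receptor probe sets on the array where it was highest. Signals below it were set to it, log2 was taken, and differences were computed in Python 3.11.15 with pandas 2.3.3. No test was run. The calling rule was run on simulated data with 4-fold changes in bright genes and noise below the spread seen between probe sets. It was bound to pass there, so this checks the code and not the calls.

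The members, lists, thresholds and named genes were chosen with earlier results of these data known. Full values were due for genes with a 4-fold difference and a signal of at least 4 times background (18 genes); values of other members were added so that all are described. For pathway lists, up to 4 genes per direction with the largest differences could be named. Alternatives were the background level, the fold, the probe sets and the scaling.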

Additional observations from a re-analysis of the deposited data

How the results depend on the processing

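Counts of list genes higher and lower stayed within 1.5 times of those reported when the background level was raised to 222 or lowered to 57.8, when the median over probe sets was taken, without _x_at and _s_at probe sets, and with scaling on a trimmed mean of genes. Asking for 3-fold in place of 2-fold left 5 genes higher in pDC than in CD8+ cDC, and 6 higher and 5 lower in CD8+ cDC than in CD11b+ cDC, as a stricter fold must reduce calls. Spike-in scaling gave 13 genes higher in pDC than in CD8+ cDC, and 6 higher and 19 lower in CD8+ cDC than in CD11b+ cDC; the cause was not tested. No called difference of the 18 genes named by the rule changed sign under any of these alternatives. Itgb5, outside that rule, turned from higher to lower in CD8+ cDC against CD11b+ cDC without _x_at and _s_at probe sets, and Epcam became higher in pDC. With the median over probe sets, calls changed for Itga4 and Itgav in pDC against CD11b+ cDC, for Itgb1, Itgb5, Epcam and Cd44 in pDC against CD8+ cDC, and for Itgb1, Itgb5 and Alcam in CD8+ cDC against CD11b+ cDC. No probe set with several genes held a member, so that alternative gave no value. No paired analysis was possible because each subset has 1 array. The number of arrays limits the precision, and lower bounds of Cdh1, Itga8, Itga1, Itgam and Tspan4 move with the background level.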

Other observations

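Junction, nectin and cadherin genes outside the list were looked at in the same way. Of 25 listed, 22 were measured, and 12 or 13 were above background in a pair. In pDC against CD11b+ cDC 3 were higher and 4 lower, in pDC against CD8+ cDC 2 and 3, and in CD8+ cDC against CD11b+ cDC 3 and 3. Over all genes, 15.0% and 14.3%, 16.0% and 14.8%, and 9.84% and 10.3% were higher and lower in these pairs, and with so few genes no difference from them is read. Cadm3, a relative of Cadm1, was seen in CD11b+ cDC alone, with 107 in pDC, 107 in CD8+ cDC and 5176 in CD11b+ cDC. Cldn1, a tight junction claudin, was brightest in CD8+ cDC, with 126 in pDC, 2311 in CD8+ cDC and 131 in CD11b+ cDC. Afdn, encoding the nectin and JAM adaptor afadin, was lowest in pDC, with 503 in pDC, 5546 in CD8+ cDC and 11356 in CD11b+ cDC. Ctnnd1, encoding p120 catenin, which binds the tail of E-cadherin, lay just above background in pDC, with 112 in pDC, 969 in CD8+ cDC and 328 in CD11b+ cDC. Pvr, the poliovirus receptor homologue that binds the receptor DNAM-1, had 3976 in pDC, 7293 in CD8+ cDC and 1224 in CD11b+ cDC, and L1cam, a neural adhesion molecule, had 970.1 in pDC, 922 in CD8+ cDC and 4232 in CD11b+ cDC.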
